A study of Mus musculus with 15 samples.

Results

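Skeletal muscle of mice that lack the cell-surface receptor CD47 was set beside muscle of sedentary wild-type mice, gene by gene, in the libraries of 1 RNA sequencing study. The comparison took 9 of the study's 15 libraries, 3 labelled CD47-KO and 6 labelled sedentary, chosen by their labels alone. All mice were C57BL/6, aged 12 months, on a normal diet and starved overnight before muscle was taken. The CD47-KO mice carried CD47-/-, with no exercise named for them. The sedentary mice were wild type. The other 6 libraries, from exercised mice, were in no comparison. They entered the choice of genes tested, the scaling, the GC correction explained below and the estimate of spread. Which muscle was sampled, which stretch of the Cd47 gene was removed, the sex of the mice and the hour of sampling are not given in the sources used here. Nothing in the labels says whether each library is a separate animal, so every p-value below measures spread among libraries.

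CD47 is a membrane protein of nearly all cells. It binds the matrix protein thrombospondin 1, which restrains nitric oxide signalling, and it signals "do not eat" to macrophages through SIRPα. In fasted muscle, low insulin signalling lets FoxO transcription factors enter the nucleus, where they switch on ubiquitin ligases of muscle breakdown and the kinase that stops glucose carbon from entering mitochondria. Muscle also carries a circadian clock, in which CLOCK or NPAS2 paired with BMAL1 (gene Arntl) drives the Per and Cry repressors and output factors such as Dbp. Sequencing libraries can differ in how well they recover transcripts rich or poor in the bases G and C, the GC content. Such a difference shifts many genes together and can look like a biological change.

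Cd47 itself (chromosome 16, 49800533 to 49915010, GRCm38) was counted in every library labelled CD47-KO. It stood at 11.5, 12.1 and 12.1 CPM (counts scaled for library size) there, and at a lowest of 11.4, a median of 14.0 and a highest of 16.4 CPM in sedentary muscle. The groups overlapped, since sedentary 3 lay under the CD47-KO libraries. The log2 fold change was -0.26 (SE 0.17, edgeR adjusted p = 0.295), and the exact two-sided permutation test gave p = 0.0833, with 0.0119 as its floor over 84 arrangements. On the GC-corrected scale explained below, the 3 libraries lay at 2.81, 2.87 and 2.83 log2 CPM, all below the lowest sedentary value of 3.66. There the log2 fold change was -1.21 (SE 0.22, edgeR adjusted p = 0.00275; exact two-sided permutation p = 0.0119). Against sedentary 1 to 3 it was -1.34 and against sedentary 4 to 6 it was -1.06, where the exact permutation p of 0.1 is the lowest that 20 arrangements allow. Counts of a whole gene cannot show whether 1 exon is missing. The group is therefore named by its label throughout.

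The libraries labelled CD47-KO also stood apart in measures that no gene group defines. Their total counts were 76005277 to 84364189, against 50928458 to 70774311 in sedentary muscle. Mitochondrially encoded genes took 18.1 to 19.2% of counts in them, 4.77 to 9.21% in sedentary 1 to 5 and 18.2% in sedentary 6. A pair of symbols named for cloned sequences took 0.0327 to 0.0596% in CD47-KO and 2.83 to 10.1% in sedentary libraries. Among values from 1 to 15, the value 5 made up 11.3 to 11.7% in CD47-KO and 3.08 to 4.30% in sedentary libraries. No sedentary library shares the CD47-KO pattern in the last 2 measures, so how these libraries were made and what genotype they carry cannot be told apart.

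Transcript GC content ran through the whole comparison. Over 10451 genes with a mean of at least 1 log2 CPM and a known GC content, the rank correlation of GC content with the log2 fold change was -0.657. This is a description across genes of the same libraries, and genes are not independent. The tenth of genes poorest in GC (22.1 to 41.6%) had a median log2 fold change of 1.27, with 682 of 1046 genes called higher and 5 lower. The tenth richest in GC (57.8 to 73.7%) had a median of -0.58, with 4 called higher and 303 lower. The trend was there in each library labelled CD47-KO, with rank correlations of -0.630, -0.648 and -0.608. Sedentary libraries differed among themselves as well, from 0.390 in sedentary 1 to -0.389 in sedentary 4. After a smooth curve on GC content was taken out of each library, the correlation was -0.0268.

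**Figure D1:**
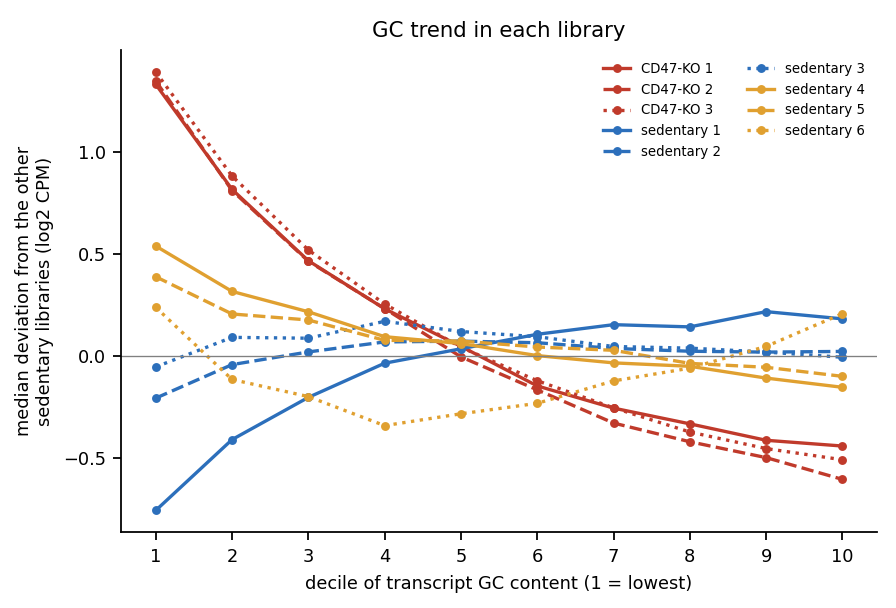
Median deviation of each library from the sedentary libraries (log2 CPM, vertical axis) in 10 classes of transcript GC content (horizontal axis, lowest to highest); each line is 1 library, and a sedentary library is set against the other sedentary libraries. In the lowest class the 3 CD47-KO lines lie at 1.33 to 1.39, above sedentary 4 at 0.54 and sedentary 1 at -0.76.

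Transcript length was a second, weaker trend, and it differed between the sets of sedentary libraries. After GC correction, the rank correlation of log2 fold change with length was 0.265 against all 6 sedentary libraries. It was -0.0148 against sedentary 1 to 3 and 0.452 against sedentary 4 to 6. Each CD47-KO library had a positive trend in its deviation from the sedentary libraries, at 0.294, 0.319 and 0.390, or 0.201, 0.232 and 0.318 after GC correction. Among sedentary libraries, sedentary 6 had the strongest negative trend, with a rank correlation of -0.412 between length and its deviation, so it was rich in short transcripts. Among sedentary libraries the strongest positive trend was that of sedentary 3, at 0.433. The medians of the ribosomal and complex I lists are therefore given below with a further length correction and without sedentary 6. Length-corrected values are also given for some named genes that this correction moved by over 1.5 times. Others that moved so, among genes not called after GC correction, included Eif4g2 (-0.32 with length corrected too), Bnip3 (-0.0012), Prkaa1 (0.02) and Prkaa2 (0.09).

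Of 17975 genes with enough counts, 3717 (20.7%) passed the edgeR test between the 3 libraries labelled CD47-KO and all 6 sedentary libraries at an adjusted p below 0.05. Of them 2146 (11.9%) were higher and 1571 (8.74%) lower in CD47-KO. With GC correction the count was 1746 (9.71%), 850 higher (4.73%) and 896 lower (4.98%), and 1174 of the 3717 genes (31.6%) kept their call and direction. Another 6 genes were called in opposite directions before and after. Each library labelled CD47-KO weighs on these counts. Without the first, the second or the third of them the counts were 2361, 2245 and 2178, and with GC correction 830, 806 and 674.

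Each set of sedentary libraries was then used as its own control. Against sedentary 1 to 3, 4685 genes (26.1%) were called, 2539 higher (14.1%) and 2146 lower (11.9%). Against sedentary 4 to 6, 5345 genes (29.7%) were called, 2846 higher (15.8%) and 2499 lower (13.9%). Those called the same way against both were 2674 (14.9%), 1713 higher (9.53%) and 961 lower (5.35%). These contrasts share the CD47-KO libraries, so agreement between them says nothing about the spread of that group. With GC correction, sedentary 1 to 3 gave 2417 genes (13.4%; 1225 higher, 6.82%; 1192 lower, 6.63%). Sedentary 4 to 6 gave 4058 (22.6%; 1853 higher, 10.3%; 2205 lower, 12.3%). Called the same way against both after correction were 1271 (7.07%), 648 higher (3.61%) and 623 lower (3.47%). That count was 847 without CD47-KO 1 and 745 without CD47-KO 3.

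A gene is said here to hold when it was called in the same direction against both sets of sedentary libraries, with and without GC correction. This left 790 genes (4.39%), 530 higher (2.95%) and 260 lower (1.45%) in the libraries labelled CD47-KO. Leaving out CD47-KO 3 cut the count to 494, and fitting only the 9 libraries compared cut it to 465. Of the 790, 235 held in all 22 settings tried, 198 higher and 37 lower. All 3 CD47-KO libraries lay above all 6 sedentary libraries for 526 of the 530 and below them for 248 of the 260, beside 2815 (15.7%) and 1851 (10.3%) of all genes. The least secure members were Ank3, Prpf6 and Wdr83os, whose largest adjusted p was 0.0497, 0.0498 and 0.04995. Just outside lay Fbxo11, Cpeb2 and Gsr, from 0.05002 to 0.0501.

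**Figure D2:**
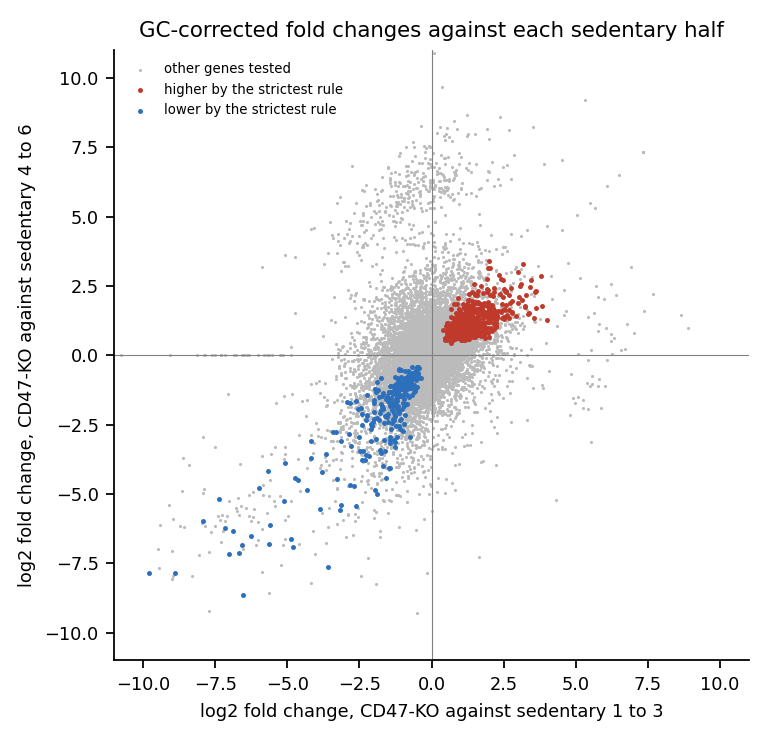
GC-corrected log2 fold change of each gene in CD47-KO against sedentary 1 to 3 (horizontal axis) and against sedentary 4 to 6 (vertical axis), 1 point per gene tested. The 530 genes that hold as higher lie in the upper right and the 260 that hold as lower in the lower left, as the rule requires.

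The genes that hold still carry a mark of composition. The higher ones had transcripts of 43.7% GC and 4602 bases at the median, and 465 of them lay below the median GC content of 49.7%, against 61 above. The lower ones had 51.3% and 1654 bases, and 38.8% of them had transcripts under 1000 bases, beside 12.8% of all genes tested. Pseudogenes made up 30.8% of them, beside 8.54% of all genes. Zinc finger genes with a Zfp symbol made up 6.42% of the genes that held as higher and 1.99% of all. Promoter GC content was alike, at medians of 62.2% (higher), 59.7% (lower) and 60.3% (all). The rule asks for a call without correction too, and that call follows the GC trend, so genes that moved against the trend are pointed out below.

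Changes that the GC correction removed included abundant metabolic genes. Ugp2, which makes the sugar donor for glycogen, read 798, 901 and 902 CPM in CD47-KO and a lowest of 217, a median of 435 and a highest of 606 CPM in sedentary muscle. Its groups did not overlap, yet its log2 fold change went from 1.06 (edgeR adjusted p = 0.00887) to -0.19 (adjusted p = 0.561) with correction. The translation factor Eif4g2 went from 0.65 to -0.07, and Bnip3, a receptor for removal of mitochondria, from 0.89 to -0.10. All 3 have transcripts poor in GC, at 39.1, 43.2 and 41.6%. The tricarboxylic acid cycle list (23 genes) went from 4 higher and 1 lower to none called by edgeR, though with length corrected too 2 were higher and 1 lower. The glycolysis and glycogen list (28 genes) went from 3 higher and 9 lower to none. Beside both lists, 11.9% of all genes were higher and 8.74% lower before correction, and 4.73 and 4.98% after it. Without sedentary 1 the correction left 6 lower in the glycolysis list, and without sedentary 1 and 6 it left 7 lower and 1 higher. Over all genes tested these settings gave 1020 lower, and 1071 lower and 947 higher.

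A set of fasting genes was higher in the libraries labelled CD47-KO. Of 40 measured genes of fasting and muscle atrophy, 15 were higher and none lower before GC correction, 13 and none after it, and 10 held as higher, beside 11.9, 4.73 and 2.95% of all genes. The list had a median GC content of 51.6%, beside 49.7% for all genes tested, and the part of the GC trend in its single members was not tested. Its median log2 fold change was 0.69 with correction, beside -0.10 for all genes, 0.66 against sedentary 1 to 3 and 1.15 against sedentary 4 to 6. Without sedentary 6 it was 0.74. The 10 were Pdk4, Fbxo32, Trim63, Fbxo30, Foxo3, Sesn1, Gadd45a, Cebpd, Klf15 and Ctsl, and 7 of them held in all 22 settings, the exceptions being Fbxo32, Klf15 and Ctsl. The list was chosen with results of these libraries known, so its count is no independent evidence of its direction.

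The ubiquitin ligases of muscle breakdown were among them. Trim63 (chromosome 4, 134315120 to 134329629, plus strand, GRCm38), the ligase MuRF1 that tags myofibril proteins, read 2252, 1886 and 3294 CPM in CD47-KO libraries 1 to 3. In sedentary muscle it read 310 CPM at the lowest, 630 at the median and 900 at the highest. Every CD47-KO library was above every sedentary one. The log2 fold change was 2.02 (SE 0.36, edgeR adjusted p = 0.00106), and 2.29 (SE 0.35, adjusted p = 0.000998) with GC correction. Fbxo32, the ligase atrogin-1, read 2359, 2195 and 3913 CPM against 417, 700 and 1336 CPM (lowest, median, highest). Its groups did not overlap either, and its GC-corrected log2 fold change was 1.51 (SE 0.33, adjusted p = 0.00871). Fbxo32 no longer held without CD47-KO 3, sedentary 1 or sedentary 2, nor when only the 9 libraries were fitted. Fbxo30, a ligase that acts in atrophy after loss of BMP signalling, read 26.7, 33.6 and 49.0 CPM against 1.77, 4.8 and 7.98 CPM. It had a GC-corrected log2 fold change of 1.61 (SE 0.27, adjusted p = 0.00202) with groups that did not overlap. Cul4b, the scaffold of another class of ubiquitin ligases, was 14.8, 16.4 and 18.4 CPM against 0.484, 2.63 and 4.26 CPM, with a GC-corrected 1.78 (SE 0.33, adjusted p = 0.00317).

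FoxO factors act on gene starts through the site GTAAACA, and the stretch before Trim63 is shown because, of the list members that hold, it alone has that site ahead of its start within the window searched. Searched on both strands in the window from 250 bases before to 50 bases after each RefSeq start (GRCm38.p6), the site was in 4 of 33 list members with a window (2 of the 8 that hold, Trim63 and, after its start, Sesn1), beside 4.05% of 27025 genes and 3.32% of the genes tested. In Trim63 it began 194 bases before the start, on the opposite strand, and the capitals below mark it. The stretch is chr4:134314881-134314941, plus strand.
Trim63: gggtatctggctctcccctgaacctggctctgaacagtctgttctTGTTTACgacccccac
Such a match is a description of the letters only. No binding was measured in these libraries.

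Upstream regulators of the same response were higher too. Foxo3 (chromosome 10, 42181841 to 42276755), the FoxO factor best known for muscle atrophy, read 61.0, 63.2 and 93.1 CPM in CD47-KO and 19, 35.2 and 43.3 CPM (lowest, median, highest) in sedentary muscle. Without overlap between the groups, its GC-corrected log2 fold change was 1.46 (SE 0.22, edgeR adjusted p = 0.000804). Its relative Foxo1 did not pass, at 0.93 (SE 0.43, adjusted p = 0.196), though it was called against sedentary 4 to 6 alone (1.29, adjusted p = 0.00152). Cebpd, a transcription factor of glucocorticoid and inflammatory responses, read 135, 127 and 246 CPM against 17.4, 36.5 and 59.3 CPM. It differed by 1.95 against sedentary 1 to 3 and 3.16 against sedentary 4 to 6, and by 2.43 (SE 0.38, adjusted p = 0.00109) against all. Klf15, which drives amino acid breakdown under glucocorticoids, read 56.0, 63.5 and 76.8 CPM against 18.2, 37.4 and 45.4 CPM. Its GC-corrected fold change was 1.28 (SE 0.25, adjusted p = 0.00463), but it no longer held without CD47-KO 2 or 3 or without sedentary 1, 2 or 3. Depp1, a FoxO target outside the list, was among the 12 largest increases, with 123, 129 and 349 CPM against 19.3, 38.6 and 86.7 CPM. CD47-KO 3 was its highest library by far, and without it, or without sedentary 1 or 2, Depp1 no longer held.

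Stress brakes on growth rose as well. Sesn1 (chromosome 10, 41809935 to 41908424), a sestrin that restrains mTORC1, read 61.4, 78.2 and 209 CPM in CD47-KO against 12.0, 20.9 and 29.0 CPM in sedentary muscle (lowest, median, highest). CD47-KO 3 was higher than the other two, and the groups did not overlap. The GC-corrected log2 fold change was 2.56 (SE 0.31, edgeR adjusted p = 0.000158). Its paralogs did not pass, with Sesn2 at 0.32 (adjusted p = 0.6248) and Sesn3 at -0.34 (adjusted p = 0.614). Gadd45a, which remodels nuclei of denervated or fasted muscle, read 35.1, 34.5 and 80.2 CPM against 5.97, 10.3 and 12.6 CPM. Again CD47-KO 3 led and no sedentary library reached the group, with a GC-corrected 2.43 (SE 0.31, adjusted p = 0.000247). Cdkn1a, a brake on the cell cycle, had 1.39 (SE 0.29, adjusted p = 0.00627) with correction, but it was not called against sedentary 1 to 3 without correction (adjusted p = 0.0513) and so does not hold.

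Enzymes that steer the use of glucose and fat were among the genes that held. Pdk4 (chromosome 6, 5483351 to 5496309), the kinase that shuts pyruvate dehydrogenase in fasting, read 4130, 5247 and 5799 CPM in CD47-KO against 752, 1505 and 2069 CPM in sedentary muscle (lowest, median, highest). Its groups did not overlap, and it had a GC-corrected log2 fold change of 1.34 (SE 0.25, edgeR adjusted p = 0.00322). It was 1.32 against sedentary 1 to 3 and 1.35 against sedentary 4 to 6, so both controls gave the same size. Acot2, a thioesterase that frees fatty acids from CoA in mitochondria, read 188, 213 and 202 CPM against 19.1, 41.0 and 59.3 CPM (lowest, median, highest). No sedentary library came near the CD47-KO libraries, and the GC-corrected log2 fold change was 2.63 (SE 0.50, adjusted p = 0.00373). Its cytosolic neighbour Acot1, on the same stretch of chromosome 12, read 33.5, 38.1 and 22.8 CPM against 3.01, 4.20 and 12.2 CPM, with 2.28 (SE 0.45, adjusted p = 0.00493). The genes are close copies, and how shared reads were counted is not given in the sources used here, so their separate values are uncertain. Both have GC contents near or above those of the genes tested (53.7 and 46.9%). Of the 32 genes of fatty acid oxidation, these 2 alone held, beside 2.95% of all genes that held as higher. After GC correction 4 were higher (2 without CD47-KO 3) and none lower, beside 4.73 and 4.98% of all genes. The list median was 0.38.

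Among insulin signalling genes, Irs1 and Pik3ca held as higher. Irs1 (chromosome 1, 82233101 to 82291416), the docking protein of the insulin receptor, read 108, 117 and 103 CPM in CD47-KO and 24.1, 38.9 and 45.8 CPM in sedentary muscle (lowest, median, highest). The groups lay far apart, and the GC-corrected log2 fold change was 1.68 (SE 0.20, edgeR adjusted p = 0.000158). Irs1 held in all 22 settings. Pik3ca, the catalytic subunit of phosphoinositide 3-kinase, had 1.05 (SE 0.27, adjusted p = 0.021) after correction and 2.12 before it. It no longer held without CD47-KO 2 or 3 or without sedentary 1 or 3. Of 27 list members these 2 held as higher and none as lower, beside 2.95 and 1.45% of all genes. After correction 2 were called higher and 1 lower, beside 4.73 and 4.98% of all genes, and the list median was 0.18.

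**Figure D3:**
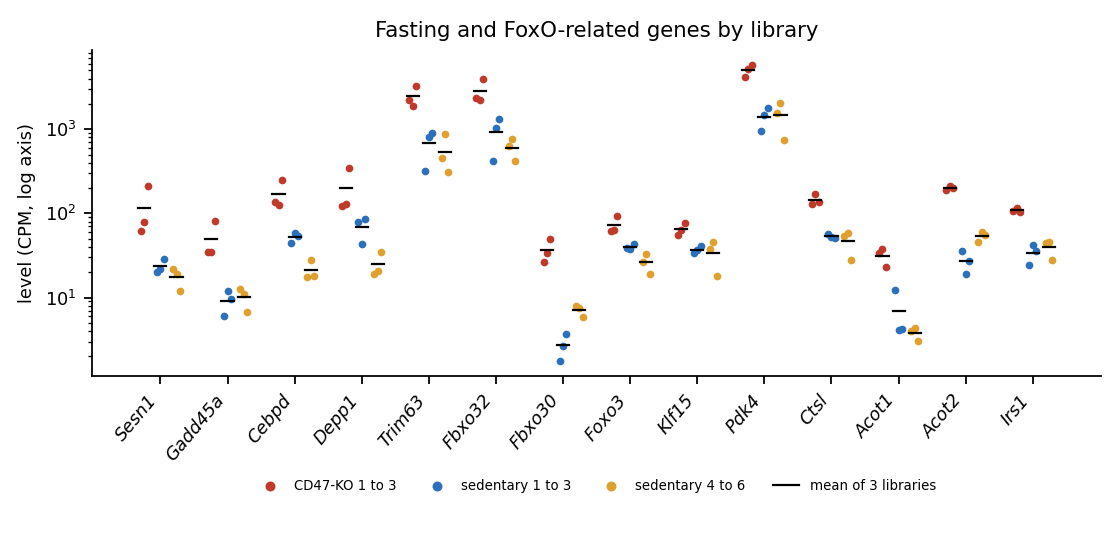
Level of 14 fasting and FoxO-related genes (CPM, log axis) in CD47-KO (red), sedentary 1 to 3 (blue) and sedentary 4 to 6 (yellow); points are libraries and black lines the mean of 3 libraries. For each of the 14 genes all 3 CD47-KO points lie above all 6 sedentary points, as for Irs1 at 103 to 117 against 24.1 to 45.8 CPM. All 14 hold as higher, as do 526 genes with such separation among 530, so it is no added evidence. Of all genes tested, 15.7% show it, and the levels are not GC-corrected.

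Clock genes moved in both directions. Among 16 core clock genes, Clock, Arntl and Npas2 were members that held as higher and Per2 held as lower, beside 2.95 and 1.45% of all genes. Of 15 clock output genes, Pdk4 held as higher and Dbp, Hlf and Bhlhe41 as lower. The list medians, 0.37 for the core clock and -0.49 for its outputs after GC correction, hide this split. Without CD47-KO 3 the corrected calls were 2 higher and 1 lower in the core clock and 1 higher and 2 lower in its outputs. Per2, Dbp and Pdk4 alone among these held in all 22 settings.

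Activators of the clock held as higher. Arntl (chromosome 7, 113207465 to 113314126) read 37.2, 48.3 and 46.8 CPM in CD47-KO against 5.18, 11.2 and 28.6 CPM in sedentary muscle (lowest, median, highest). The groups did not overlap, and the GC-corrected log2 fold change was 1.54 (SE 0.34, edgeR adjusted p = 0.00891), 2.22 against sedentary 1 to 3 and 1.08 against sedentary 4 to 6. Without CD47-KO 2 or 3, or without sedentary 4 or 6, Arntl no longer held. Npas2, which can take the place of CLOCK, is scarce here, at 1.56, 2.41 and 1.63 CPM against 0.157, 0.356 and 0.532 CPM. It differed by 2.59 (SE 0.39, adjusted p = 0.000791), close to the same size against each set, and has a GC content of 52.3%, above the median of all genes. Clock itself read 24.7, 35.9 and 36.2 CPM against 2.88, 5.44 and 12.4 CPM. With a GC-poor transcript (40.9%), its log2 fold change fell from 2.29 to 1.28 (SE 0.29, adjusted p = 0.0118) with correction. The call was lost without CD47-KO 2 or 3, with the length correction, with only the 9 libraries fitted and with GC content averaged over transcripts.

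A repressor and 3 output genes held as lower. Per2 (chromosome 1, 91415982 to 91459324) read 6.45, 5.03 and 4.29 CPM in CD47-KO against 10.7, 20.1 and 35.5 CPM in sedentary muscle (lowest, median, highest). Its groups did not overlap, with a GC-corrected log2 fold change of -1.63 (SE 0.29, edgeR adjusted p = 0.00237). Dbp (chromosome 7, 45705088 to 45710203), the output factor that follows the clock most directly, read 5.78, 4.42 and 4.12 CPM against 13.5, 32.2 and 86.2 CPM. Its GC-corrected fold change was -2.38 (SE 0.43, adjusted p = 0.00275), -2.83 against sedentary 1 to 3 and -1.73 against sedentary 4 to 6, and all CD47-KO libraries were below all others. Hlf, a relative of Dbp, read 3.44, 4.51 and 4.27 CPM against 3.57, 10.04 and 11 CPM, and sedentary 6 fell among the CD47-KO libraries. It had -1.59 (SE 0.35, adjusted p = 0.01) and no longer held in 10 of the 22 settings, among them the loss of any CD47-KO library or of sedentary 2, 3, 4 or 5. Bhlhe41, the repressor DEC2, read 20.0, 10.5 and 13.9 CPM against 20.4, 28.3 and 35.0 CPM, with -1.08 (SE 0.20, adjusted p = 0.00306). Its groups nearly touched, and it no longer held without CD47-KO 2 or 3 or without sedentary 3 or 4.

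Several clock genes differed from sedentary 1 to 3 and not from sedentary 4 to 6, and so do not hold. Per3 had -1.95 (SE 0.29, edgeR adjusted p = 0.000614) against sedentary 1 to 3 and -0.20 (adjusted p = 0.672) against sedentary 4 to 6. Ciart had -1.82 (adjusted p = 0.00303) and 0.09 (adjusted p = 0.891). Nr1d2, a REV-ERB repressor, had 1.07 (adjusted p = 0.000392) and -0.14 (adjusted p = 0.569). Per1 lay at 56.2 to 92.9 CPM in CD47-KO, below 138 to 170 CPM in sedentary 1 to 3, and overlapped 44.0 to 59.2 CPM in sedentary 4 to 6. Nr1d1, Cry1, Cry2, Tef and Bhlhe40 were not called against all 6 sedentary libraries, at -0.01, 0.21, 0.39, -0.26 and -0.79. Whether the fold changes against the separate sets differ from each other was not tested. The hour of sampling moves these genes in mice, and no label gives it.

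BMAL1 with CLOCK or NPAS2 acts through the E-box CACGTG, and the start of Bhlhe41 is shown because it is the clock gene that holds and carries this word ahead of its start. The E-box was in 3 of 12 core clock genes with a window, in none of the 3 among them that hold, and in 3 of 11 output genes, beside 8.09% of 27025 genes and 11.2% of the genes tested. In Bhlhe41 it began 153 bases before the RefSeq start (GRCm38.p6), marked by capitals. The stretch is chr6:145865559-145865618, minus strand, written in the direction of the gene.
Bhlhe41: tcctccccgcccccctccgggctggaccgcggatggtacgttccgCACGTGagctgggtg
The site TTATGTAA, to which Dbp and Hlf bind, was in 1 of the 12 core clock genes, beside 1.11% of 27025 genes.

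**Figure D4:**
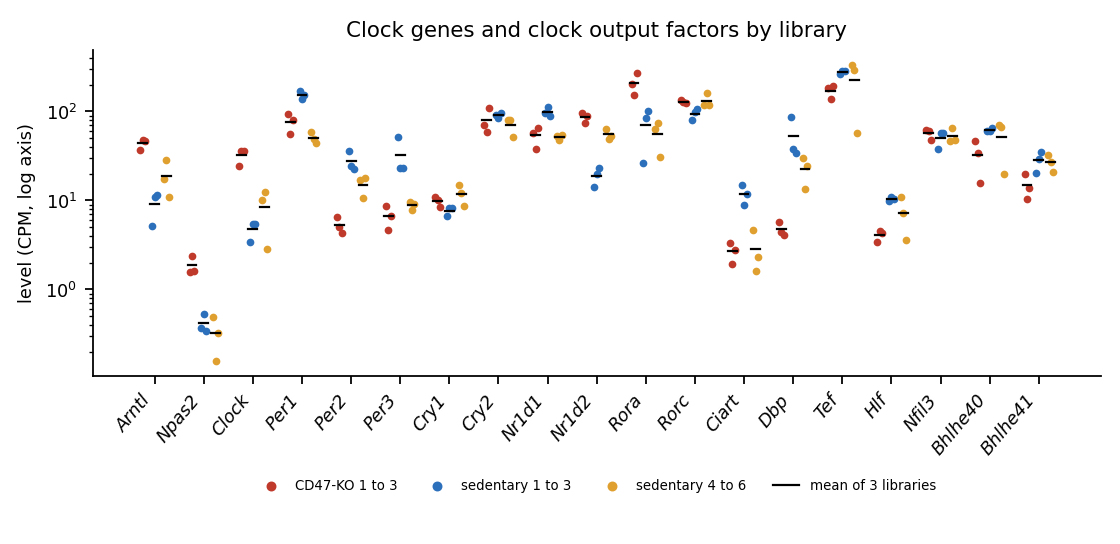
Level of 19 clock genes and output factors (CPM, log axis) in CD47-KO (red), sedentary 1 to 3 (blue) and sedentary 4 to 6 (yellow); points are libraries and black lines the mean of 3 libraries. Arntl, Npas2 and Clock lie above both sedentary sets and Per2 and Dbp below both, while Per3 and Ciart overlap sedentary 4 to 6.

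Many genes that hold chromosomes together were called higher. The list of 24 measured genes covers cohesin, condensin and the SMC5/6 complex, and also Smchd1, which is in none of these. Of them, 15 were higher and 1 lower before GC correction, beside 11.9% of all genes called higher. After correction 13 were higher and none lower, beside 4.73% of all genes called higher, and without CD47-KO 3 there were 9 higher. As higher held 11, beside 2.95% of all genes, namely Smc1a, Smc3, Smc4, Smc5, Smc6, Stag1, Stag2, Nipbl, Pds5a, Ncapd3 and Smchd1. The transcripts of the list are poor in GC (median 42.8%), and the list median log2 fold change went from 1.49 to 0.80 with correction. It was 0.81 against sedentary 1 to 3 and 0.79 against sedentary 4 to 6. With the length correction as well it was 0.83 and 0.47. The direction of this list is that of the GC trend, and what part of the remaining difference goes with that trend was not tested.

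Nipbl (chromosome 15, 8290617 to 8444463), which loads cohesin onto DNA, read 71.0, 70.4 and 76.6 CPM in CD47-KO against 5.38, 10.3 and 14.8 CPM in sedentary muscle (lowest, median, highest). No libraries overlapped, and the GC-corrected log2 fold change was 1.92 (SE 0.17, edgeR adjusted p = 2.83e-05), down from 2.76. Smc3, a core arm of the cohesin ring, read 43.5, 42.5 and 44.3 CPM against 4.54, 6.00 and 8.59 CPM, with 1.90 (SE 0.21, adjusted p = 9.20e-05). The other arm, Smc1a, has a GC content of 46.9% and read 40.3, 39.8 and 40.1 CPM against 15.8, 18.2 and 21.1 CPM. It changed less with correction, from 1.14 to 0.87 (SE 0.15, adjusted p = 0.00254). Smc5, of the complex that resolves joined DNA strands, had 1.56 (SE 0.17, adjusted p = 6.71e-05), and Stag2, a cohesin subunit, 1.72 (SE 0.29, adjusted p = 0.0019). The ring's clasp Rad21 was not called after correction, at 0.37 (SE 0.14, adjusted p = 0.108).

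Splicing factors, another GC-poor list, lost most of their calls with correction. Of 37 hnRNP and SR splicing factors (median GC content 43.6%), 21 were higher and none lower before correction, beside 11.9 and 8.74% of all genes. After it 4 were higher and 1 lower, beside 4.73 and 4.98% of all genes, and the median went from 0.83 to 0.26. The higher calls after correction were 10 without sedentary 6, 6 without sedentary 1, 2 without CD47-KO 3 and 8 with length corrected too. Over all genes tested these settings gave 1026, 786, 379 and 872 higher calls. Hnrnpa0 and Hnrnpa1 held as higher, beside 2.95% of all genes. Hnrnpa0 has the higher GC content, 55.4%, and read 30.4, 33.9 and 33.1 CPM against 18.5, 21.5 and 26.1 CPM (lowest, median, highest), with a GC-corrected log2 fold change of 1.01 (SE 0.13, edgeR adjusted p = 0.000247). It no longer held without CD47-KO 2 or 3 or without sedentary 2 or 3. Hnrnpa1 no longer held in 10 settings, the loss of any CD47-KO library or of sedentary 1, 2 or 3 among them. The CCR4-NOT deadenylase list (18 genes) went from 7 higher to 1, beside 11.9 and 4.73% of all genes. None of the list held. Without CD47-KO 3 the counts of higher calls were 4 and none, where all genes tested gave 1580 and 379.

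Among regulators of muscle splicing, Mbnl1, Mbnl2 and Qk held as higher, of 14 measured, beside 2.95% of all genes. Mbnl2, a muscleblind protein that switches fetal to adult isoforms, read 125, 147 and 149 CPM against 14.6, 24.7 and 56.4 CPM in sedentary muscle (lowest, median, highest). Its GC content of 49.3% is near the median, and its log2 fold change hardly moved with correction, from 2.32 to 2.30 (SE 0.41, edgeR adjusted p = 0.00256). It was 3.25 against sedentary 1 to 3 and 1.73 against sedentary 4 to 6. Mbnl1 varied widely, at 360, 113 and 251 CPM against 3.56, 17.7 and 44.3 CPM, and no longer held in 7 settings, which left out CD47-KO 1 or 3, sedentary 4, 5 or 6, sedentary 1 and 6 together, or corrected for length. Qk had 0.62 (SE 0.16, adjusted p = 0.022) and no longer held without CD47-KO 2 or sedentary 2, nor with length corrected too, where it was at 0.37 (adjusted p = 0.396).

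The remaining genes of largest increase had mixed roles. Erbin, which anchors receptors at the membrane, read 93.8, 138 and 253 CPM against 2.04, 10.7 and 24.8 CPM (lowest, median, highest), with a GC-corrected log2 fold change of 2.59 (SE 0.48, edgeR adjusted p = 0.00314). Without CD47-KO 3 it no longer held. Bod1l, which shields stalled replication forks, read 73.5, 72.7 and 88.3 CPM against 6.61, 10.8 and 14.8 CPM, with 2.44 (SE 0.24, adjusted p = 5.18e-05). Nol8, a nucleolar protein, had 2.41 (SE 0.23), the transcription factor Sp4 2.43 (SE 0.29) and Casp8ap2, a nuclear body protein, 2.30 (SE 0.38). Bod1l, Nol8 and Sp4 held in all 22 settings. The processed pseudogene Hmgb1-ps8 had 2.86 (SE 0.50), and reads of its parent gene could have been counted there. Tmed5, a cargo receptor of the early secretory path, read 78.0, 126 and 68.6 CPM against 3.25, 5.88 and 10.4 CPM. It has the lowest GC content of these, 35.0%, and went from 3.87 to 2.27 (SE 0.31, adjusted p = 0.000426).

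The study's title names AMPK, the kinase that senses low cellular energy, and its upstream activators split. LKB1 (gene Stk11) works as a complex with a STRAD pseudokinase and the scaffold MO25 (gene Cab39). Strada (chromosome 11, 106163330 to 106202168) read 6.63, 5.91 and 6.08 CPM in CD47-KO against 7.96, 9.38 and 11.6 CPM in sedentary muscle (lowest, median, highest). Stradb, its relative, read 53.6, 49.2 and 62.3 CPM against 63.4, 94.4 and 117 CPM, and neither gene's groups overlapped. Their transcripts are poor in GC (40.4 and 42.6%), so they ran against the trend. Correction took Strada from -0.65 to -1.82 (SE 0.23, edgeR adjusted p = 0.000247) and Stradb from -0.78 to -1.66 (SE 0.22, adjusted p = 0.000319). Strada no longer held in 9 settings, among them the loss of any CD47-KO library or of sedentary 2, 3, 4 or 5, and Stradb without CD47-KO 1 or 2 or without sedentary 4 or 5. Cab39 read 300, 307 and 366 CPM against 66.7, 106 and 157 CPM and held as higher in all 22 settings, with 1.06 (SE 0.19, adjusted p = 0.00249). Stk11 was not called, at 0.32 (SE 0.18, adjusted p = 0.326).

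The AMPK catalytic subunits did not hold. Prkaa1 went from 1.25 (edgeR adjusted p = 0.0137) to 0.12 (adjusted p = 0.828) with correction, and Prkaa2, the main form in muscle, from 1.36 (adjusted p = 0.014) to 0.27 (adjusted p = 0.727). Over the 24 AMPK pathway genes measured, 1 held as higher and 2 as lower, beside 2.95 and 1.45% of all genes, and the median was 0.08. Among regulators of mitochondrial number, Gabpa and Sirt1 held as higher of 21, beside 2.95% of all genes. Gabpa, the DNA-binding part of NRF2/GABP that drives nuclear genes of respiration, read 41.6, 44.9 and 50.5 CPM against 5.51, 8.45 and 13.3 CPM (lowest, median, highest). It had a GC-corrected log2 fold change of 1.37 (SE 0.18, adjusted p = 0.000291). Sirt1, a deacetylase that acts on PGC-1α, had 1.21 (SE 0.29, adjusted p = 0.0161) and no longer held with GC content averaged over transcripts. Of 19 genes of mitochondrial dynamics and mitophagy, Yme1l1 alone held, as higher, beside 2.95% of all genes. This protease of the inner mitochondrial membrane was at 0.96 (SE 0.13, edgeR adjusted p = 0.000337).

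Part of the ribosomal protein genes were lower, by a size that depended on the control. Of 78 cytosolic ribosomal protein genes, 39 were lower and none higher before correction, 23 and none after it, and 8 held as lower, beside 8.74, 4.98 and 1.45% of all genes. Without CD47-KO 3 the counts were 15 lower before and 7 after correction. The list median with GC correction was -0.32 against sedentary 1 to 3, with 12 lower and 3 higher, and -1.32 against sedentary 4 to 6, with 67 lower and none higher. Without sedentary 6 the median against sedentary 4 and 5 was -0.81. With length corrected as well, the medians were -0.29 and -0.74. Rps29 (chromosome 12, 69157722 to 69159186), a small protein of the small subunit, read 16, 17.8 and 19.6 CPM in CD47-KO. In sedentary muscle it read 64.3 CPM at the lowest, 97.6 at the median and 404 at the highest, the last in sedentary 6. Its groups did not overlap, and its GC-corrected log2 fold change was -2.91 (SE 0.60, edgeR adjusted p = 0.00644), or -1.83 with length corrected too. It was the sole ribosomal gene that held in all 22 settings.

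Other ribosomal genes that hold lost their call in some settings. Rps28 read 7.00, 11.4 and 9.05 CPM against 33.1, 36.8 and 125 CPM (lowest, median, highest), with a GC-corrected log2 fold change of -2.57 (SE 0.49, edgeR adjusted p = 0.00392), and no longer held without CD47-KO 1. Rps13, whose longest transcript is poor in GC (44.7%), had -2.10 (SE 0.37, adjusted p = 0.00247) and no longer held without CD47-KO 3. Rps3 had -1.30 (SE 0.26, adjusted p = 0.0046), and Rps27 and Rpl10 -2.08 and -1.40. With length corrected too, Rps27 was at -1.37. Rps27 no longer held without CD47-KO 3, sedentary 1 or sedentary 3, and Rpl10 without CD47-KO 1 or 3 or sedentary 2 or 3. Rpl37rt, Rpl21-ps8 and Rpl10-ps3, which are copies of ribosomal genes, were among the 12 largest decreases, at -2.61, -2.47 and -2.32, and Rpl21-ps8 was at -1.43 with length corrected too. All 3 no longer held without CD47-KO 1 or 3 or sedentary 1 or 2, and the first pair also without CD47-KO 2 or sedentary 3. They share near-identical sequence with their parents, so where their reads belong is uncertain. Rpl41, the shortest ribosomal protein, was not called after correction, at -1.01 (adjusted p = 0.288), or -0.24 with length corrected too.

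Nuclear genes of respiration followed the ribosomal pattern. Of 36 complex I subunits, 17 were lower before correction and 9 after it, beside 8.74 and 4.98% of all genes, and none was higher. Without CD47-KO 3, 2 were lower before correction and none after it. Ndufa9, Ndufb6 and Ndufb8 held as lower, beside 1.45% of all genes. The median with correction was -0.37 against sedentary 1 to 3 and -1.30 against sedentary 4 to 6, or -0.74 without sedentary 6 and -0.54 with length corrected. Ndufb6, a short transcript of 659 bases, read 29.4, 33.5 and 27.4 CPM against 54.7, 68.3 and 145 CPM (lowest, median, highest) and had a log2 fold change of -1.55 (SE 0.35, edgeR adjusted p = 0.0103), or -0.90 with length corrected too. It no longer held without CD47-KO 1 or 3 or sedentary 1. Ndufa9 read 165, 173 and 142 CPM against 217, 240 and 276 CPM, with -0.76 (SE 0.19, adjusted p = 0.0223). Ndufb8 had -1.40 (SE 0.33, adjusted p = 0.0146). Both of these no longer held without any single CD47-KO library or without sedentary 1 or 2. None of the 3 held in all settings.

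Other mitochondrial lists gave less. Among 40 subunits of complexes II to V, 6 were lower after correction (4 without CD47-KO 3), beside 4.98% of all genes. Atp5g1 and Atp5g3, which both encode the rotor ring of ATP synthase, held as lower, beside 1.45% of all genes. Atp5g3 read 135, 155 and 131 CPM against 290, 330 and 618 CPM (lowest, median, highest), with -1.49 (SE 0.31, edgeR adjusted p = 0.00624), and no longer held without CD47-KO 1 or 3 or sedentary 1. Atp5g1 had -1.59 (SE 0.37, adjusted p = 0.0126) and no longer held in 8 settings, the loss of any CD47-KO library or of sedentary 1, 2 or 3 among them. Of 77 mitochondrial ribosomal proteins, 15 were lower after correction (7 without CD47-KO 3), beside 4.98% of all genes. Mrpl37 alone held, at -0.46 (SE 0.13, adjusted p = 0.0363), though not when any CD47-KO library or sedentary 1, 2 or 3 was left out. The 15 mitochondrially encoded genes, with a median GC content of 36.0%, went from a median of 1.32 to -0.11. There mt-Nd4l held as higher, at 2369, 2142 and 2549 CPM against 212, 412 and 925 CPM, with 1.34 (SE 0.30, adjusted p = 0.00967), or 2.30 with length corrected too. It no longer held without CD47-KO 1 or 3 or sedentary 4 or 5, and it overlaps its neighbour mt-Nd4, so the reads of both cannot be fully told apart.

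**Figure D5:**
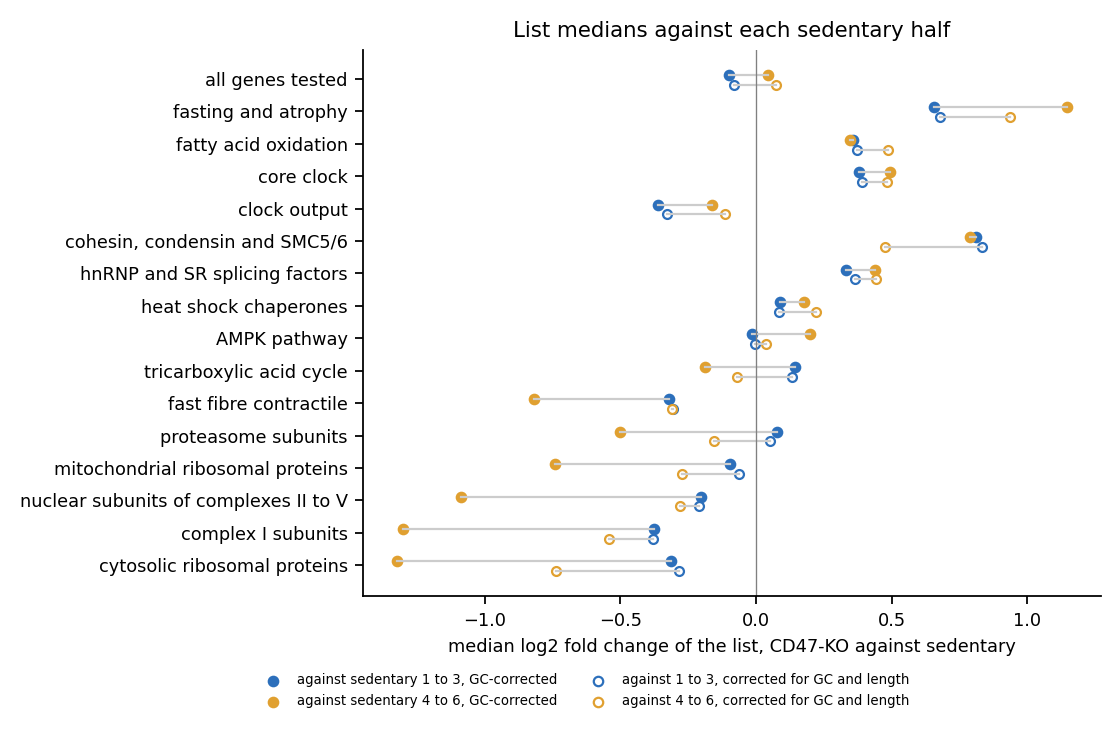
Median log2 fold change of selected gene lists in CD47-KO against sedentary 1 to 3 (blue) and sedentary 4 to 6 (yellow), GC-corrected (filled) and corrected for GC and length (open). The fasting list lies at 0.66 to 1.15 against both, while the ribosomal list spreads from -0.32 to -1.32 and narrows to -0.29 and -0.74 with the length correction.

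Short structural RNAs were far lower in the libraries labelled CD47-KO. Rn7s1 (chromosome 12, 69159295 to 69159594), a copy of the RNA core of the signal recognition particle, read 2.39, 2.56 and 1.94 CPM in CD47-KO against 77.9, 162 and 491 CPM in sedentary muscle (lowest, median, highest). Its near-identical copy Rn7s2 read 2.44, 2.51 and 1.99 CPM against 78.3, 113 and 184 CPM, and reads could have been counted to either. The GC-corrected log2 fold changes were -5.87 (SE 0.87, edgeR adjusted p = 0.000777) and -5.19 (SE 1.08, adjusted p = 0.00664). Rn7sk, which holds back transcription elongation, read 0.804, 0.218 and 0.348 CPM against 7.04, 16.3 and 25.7 CPM, and Rpph1, the RNA of RNase P, read 0, 0.0573 and 0 CPM against 1.38, 3.8 and 6.89 CPM. Rmrp, of a related RNase, held as lower too. These 5 of 16 noncoding RNAs were the ones that held, all lower, beside 1.45% of all genes. None of the 16 was higher after correction, beside 4.73% of all genes. Together, Rn7s1, Rn7s2, Rn7sk, Rmrp and Rpph1 took 0.000436 to 0.000618% of counts in CD47-KO and 0.0165 to 0.0562% in sedentary libraries. They are short transcripts without a poly(A) tail, and whether the libraries were selected for RNA size or poly(A) in the same way is not given in the sources used here.

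Among contractile genes, the fast fibre calls depended on which libraries were used and on the length correction. Of 22 fast fibre genes, 9 were lower before GC correction, beside 8.74% of all genes. After it 2 were lower and 1 higher, beside 4.98 and 4.73% of all genes. Without sedentary 1 the corrected calls were 9 lower and 1 higher, and without sedentary 1 and 6 they were 11 lower and 1 higher. Without CD47-KO 3 there was 1 lower and none higher, and the same with length corrected too. Mylpf (chromosome 7, 127208890 to 127214298), the regulatory light chain of fast myosin, read 3752, 3173 and 3714 CPM against 7075, 10821 and 13960 CPM (lowest, median, highest). Its log2 fold change was -1.31 (SE 0.25, edgeR adjusted p = 0.00439), but its transcript is 766 bases long, and with length corrected it was -0.85 (adjusted p = 0.0776) and no longer held. Casq1, the calcium store of fast fibres, had -0.82 (SE 0.21, adjusted p = 0.0205) and no longer held without any single CD47-KO library, without sedentary 2 or 3, or with the length correction. None of 18 slow fibre genes was called by edgeR with all 6 sedentary libraries before or after correction. Their median was -1.28 against sedentary 1 to 3 and 0.28 against sedentary 4 to 6.

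At the triad, where the nerve impulse meets the calcium store, Trdn stood out. Triadin (chromosome 10, 33080554 to 33476709), which ties Casq1 to the release channel, read 1789, 1474 and 1558 CPM in CD47-KO against 34.4, 138 and 205 CPM in sedentary muscle (lowest, median, highest). Sedentary 1 to 3 were the lowest, at 34.4 to 82.7 CPM, and sedentary 4 to 6 lay at 193 to 205 CPM. The GC content of the transcript is 36.8%. The log2 fold change went from 3.61 to 2.24 (SE 0.26, edgeR adjusted p = 0.000156) with correction, 2.72 and 1.88 against the sets, and held in all 22 settings. Itpr1, a calcium release channel of the endoplasmic reticulum, read 21.0, 18.2 and 21.4 CPM against 34.3, 39.4 and 52.5 CPM and had -0.99 (SE 0.17, adjusted p = 0.00243) with and -1.01 without correction. It was the sole member of its list of 22 to hold, beside 1.45% of all genes that held as lower, and did so in all settings. Ank3, an ankyrin scaffold, held at the edge, with an adjusted p of 0.0677 against all 6 sedentary libraries after correction, and no longer held in 10 settings, the loss of any CD47-KO library or of sedentary 1, 2 or 3 among them.

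Nerve contact genes moved in opposite directions. Musk, the kinase that gathers acetylcholine receptors under the nerve, read 24.8, 23.9 and 55.5 CPM against 7.95, 9.97 and 20.4 CPM in sedentary muscle (lowest, median, highest). CD47-KO 3 was the highest, and Musk no longer held without it. Its GC-corrected log2 fold change was 1.66 (SE 0.30, edgeR adjusted p = 0.00303). Dok7, the adaptor that activates MUSK, read 4.49, 4.94 and 5.69 CPM against 11, 13.2 and 23.8 CPM, with -1.05 (SE 0.23, adjusted p = 0.00874). Without CD47-KO 1 or 2 or sedentary 1, Dok7 no longer held. These were the 2 genes that held among 21 of the junction, beside 2.95% of all genes as higher and 1.45% as lower.

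Stress defence genes rose in part. Nfe2l2 (chromosome 2, 75675513 to 75704641), the factor NRF2 that drives antioxidant genes, read 164, 129 and 123 CPM in CD47-KO against 43.9, 50.6 and 79.1 CPM in sedentary muscle (lowest, median, highest). The groups did not overlap, and the GC-corrected log2 fold change was 1.09 (SE 0.17, edgeR adjusted p = 0.0011). Among its known targets, Gclc, the limiting enzyme of glutathione synthesis, read 22.7, 25.0 and 27.6 CPM against 9.24, 12.2 and 15 CPM, with 0.87 (SE 0.16, adjusted p = 0.00317). Hmox1, which breaks down haem, had 1.91 (SE 0.50, adjusted p = 0.0237) and no longer held without CD47-KO 2. The peroxide enzyme Cat was called against each set but not against all 6 with correction (1.12, adjusted p = 0.0844), and no longer held without CD47-KO 1 or 2 or sedentary 6. Txn1, a short thioredoxin transcript, was lower at -1.10 (SE 0.26, adjusted p = 0.0134), or -0.71 with length corrected too, and no longer held in 11 settings, the loss of any CD47-KO library or of any of sedentary 1 to 5 among them. Of 26 list members 4 held as higher and 1 as lower, beside 2.95 and 1.45% of all genes, and the list median was -0.22.

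Chaperones, autophagy and translation gave single genes. Hspd1, the mitochondrial chaperonin HSP60, read 239, 266 and 230 CPM against 74.7, 108 and 123 CPM (lowest, median, highest), with 0.99 (SE 0.15, edgeR adjusted p = 0.00108). It held in all 22 settings. Hspa4 and Hsp90b1 also held as higher among 34 chaperones, at 0.81 and 0.53, beside 2.95% of all genes. Neither held with GC content averaged over transcripts, nor did Hsp90b1 without CD47-KO 1 or 2 or sedentary 2. In autophagy, Rb1cc1, a scaffold of the kinase that starts it, read 81.4, 75.6 and 97.2 CPM against 3.61, 10.3 and 20.5 CPM. Its log2 fold change was 1.78 (SE 0.36, adjusted p = 0.00517), and 1.45 (adjusted p = 0.0732) against all 6 with length corrected, where it still passed against each set. Gabarapl2, a membrane tag of autophagosomes, was lower against the GC trend, at 33.6, 33.9 and 32.6 CPM against 46.6, 66.8 and 81.5 CPM, with -1.45 (SE 0.20, adjusted p = 0.000437). Gabarapl1 and Ctsl held as higher, Ctsl at 0.95 (SE 0.19, adjusted p = 0.00589) and not without CD47-KO 2 or sedentary 2 or 3. Over 39 autophagy genes the calls after correction were 5 higher and 5 lower, beside 4.73 and 4.98% of all genes. They were 4 and 1 without CD47-KO 3 and 8 and 5 without sedentary 6. Eif3a, the largest subunit of an initiation factor, read 392, 357 and 402 CPM against 65.7, 82.4 and 136 CPM and held in all settings at 1.52 (SE 0.25, adjusted p = 0.00176). Eif3j1 and Eif5b held as higher too, and Eif6 as lower, of 43 initiation factors, beside 2.95 and 1.45% of all genes. Eif6 no longer held in 9 settings, the loss of any CD47-KO library or of sedentary 1, 2 or 3 among them.

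The partners of CD47 itself were mostly not called. Thbs1, its thrombospondin ligand, read 8.90, 16 and 12.9 CPM in CD47-KO against 2.17, 5.11 and 24.2 CPM in sedentary muscle (lowest, median, highest), with wide overlap. It had a GC-corrected log2 fold change of 0.62 (SE 0.72, edgeR adjusted p = 0.688), and 1.84 (adjusted p = 0.0225) against sedentary 4 to 6 alone. Sirpa, the macrophage receptor, had 0.26 (SE 0.32, adjusted p = 0.713). Ubqln1 and Ubqln2, ubiquilins that were first described as proteins linking CD47 signalling to the cytoskeleton, held as higher in all 22 settings. Ubqln1 read 86.5, 73.1 and 93.3 CPM against 34.6, 49.5 and 55.5 CPM, with 0.73 (SE 0.14, adjusted p = 0.00464), and Ubqln2 had 1.29 (SE 0.26, adjusted p = 0.00486). Gnai2, an inhibitory G protein subunit that CD47 can signal through, was lower at 28.8, 28.1 and 23.8 CPM against 47.5, 54.6 and 74.9 CPM. It had -0.64 (SE 0.15, adjusted p = 0.0138) and no longer held without CD47-KO 3. With Itgav, an integrin chain, 3 of 19 genes held as higher and 1 as lower, beside 2.95 and 1.45% of all genes. None of 23 nitric oxide and cGMP genes held, where 3 were lower and none higher after correction, beside 4.98 and 4.73% of all genes. Without CD47-KO 3 none was called, and without sedentary 1 there was 1 lower.

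Of other named decreases, Fam78a, a gene of unknown role, read 0.740, 0.779 and 1.64 CPM against 2.58, 6.70 and 10.9 CPM (lowest, median, highest) and held in all 22 settings at -2.31 (SE 0.42, edgeR adjusted p = 0.00292). Nmrk2, a muscle kinase that makes NAD from nicotinamide riboside, read 13.9, 17.6 and 13.0 CPM against 30.2, 60.8 and 149 CPM, with -2.31 (SE 0.50, adjusted p = 0.00844). It no longer held without CD47-KO 1 or 3 or sedentary 2. Cntnap2, a neuronal adhesion protein, had -2.41 (SE 0.46, adjusted p = 0.00405) with a GC-poor transcript (44.5%), against the trend, and no longer held without CD47-KO 2 or 3 or sedentary 2 or 3. Churc1, a small zinc-binding factor with a GC content of 41.7%, read 12.8, 14.3 and 12.5 CPM against 24.7, 26.3 and 50.2 CPM. It went from -1.19 to -2.21 (SE 0.28, adjusted p = 0.000236) with correction and held in all settings. In the matrix (30 genes) and interferon (25 genes) lists 1 gene each held as higher, beside 2.95% of all genes. They were Lox (1.32, SE 0.33) and Gbp7 (1.85, SE 0.44). Both no longer held without CD47-KO 3 or sedentary 2 or 3, nor Gbp7 without CD47-KO 1 or 2 or sedentary 1.

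Markers of muscle fibres were abundant in all libraries and no marker list of any cell type had a member that held. The summed muscle fibre markers reached 86600 to 123587 CPM in CD47-KO, 111798 to 198124 in sedentary 1 to 3 and 149634 to 164420 in sedentary 4 to 6. In this bulk tissue, fewer cells of a type and less RNA per cell cannot be told apart. Smooth muscle markers (3 genes) summed to 54.1 to 73.1 CPM in CD47-KO, below 94.9 to 166 CPM in all sedentary libraries. Schwann cell markers (5 genes) summed to 27.9 to 48.3 CPM, against 68.1 to 235 CPM in sedentary 1 to 3 and 38.1 to 47.8 CPM in sedentary 4 to 6. Endothelial markers (6 genes) gave 157 to 191 CPM against 151 to 400 CPM, and macrophage markers (8 genes) 43.6 to 61.2 CPM against 16 to 75.8 CPM. Erythroid markers (5 genes) gave 173 to 284 CPM against 215 to 827 CPM, adipocyte markers (4 genes) 177 to 263 against 105 to 555, and fibroblast markers (5 genes) 278 to 327 against 106 to 606. Tendon markers (4 genes) lay at 29.8 to 43.4 CPM in CD47-KO and 9.50 to 433 CPM in sedentary libraries. The part that differing cell makeup plays in any result above was not tested.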

How the data were processed

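RNA sequencing libraries of mouse skeletal muscle (15 samples) were used as the count of reads per gene symbol that the authors deposited, unnormalized whole numbers for 22798 symbols. Per the submitters' processing notes, reads were trimmed with Trimmomatic 0.30, aligned to GRCm38 with HISAT2 2.0.1 and counted with HTSeq 0.6.1. The strand setting is not given in the sources used here, so reads of overlapping or antisense genes may be mixed. Per the labels' protocols, RNA was extracted with TRIzol and a column and made into libraries with a NEBNext Ultra RNA kit.

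Counts were tested with edgeR 4.0.16 (quasi-likelihood, robust, TMM scaling) in R 4.3.3 on 17975 genes that passed filterByExpr, with all 15 libraries in the fit and Benjamini-Hochberg adjusted p below 0.05. The sedentary libraries were used together and as numbers 1 to 3 and 4 to 6, which the labels do not call batches. For GC correction, a lowess curve (span 0.3) of each library's deviation on the GC content of each gene's longest transcript (GENCODE M21, GRCm38) was taken as an offset. It was fitted on genes with a mean log2 CPM of at least 1, and 17914 genes tested had a GC content. The curve also removes any true difference that follows GC content. CPM values in the text are scaled but not GC-corrected, and log2 CPM used a prior count of 2. The standard error was taken from the test's F value. The procedure was tested on simulated data with known changes.

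Named genes were Cd47, the 12 largest GC-corrected changes in each direction among genes that hold and reach 1 log2 CPM on average (clone and model names, mitochondrial, Y and X-inactivation genes left out), up to 3 members per list with the smallest p, and up to 3 abundant genes whose change did not outlast correction. The members and the 55 gene lists were chosen with earlier results of these data known. The clock genes besides Arntl, Npas2, Per2, Dbp and Bhlhe41, and Klf15, Fbxo30, Sesn2, Sesn3, Foxo1, Cdkn1a, Churc1, Hmox1, Cat, Thbs1, Sirpa, Smc1a, Stag2, Rad21, Prkaa1, Prkaa2, Stk11, Rpl41, Rps27 and Rpl10 were added after their values were seen. Promoter windows, 250 bases before to 50 after a start, came from RefSeq (GRCm38.p6). Alternatives were RLE scaling, DESeq2 1.42.0, limma-voom (limma 3.58.1), other filters, fits of fewer libraries, each library left out, another span, a further length correction and a replicate block. Further ones were chosen after seeing the data, a mean GC content over transcripts, the removal of mitochondrial and clone symbols, the removal of sedentary 1 and 6, and a block on replicates 1 to 3 only. A member of the core clock list is not reported here.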

Additional observations from a re-analysis of the deposited data

Results flagged for a closer look

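Of 124 genes screened, 21 had a sedentary library whose level lay far from the other 5, by Dixon's 95% critical value for 6 libraries. Chance flags about 1 in 20. Sedentary 6 was the library in 17 of the 21.

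Short genes of the ribosome and of respiration were highest in sedentary 6. Rps29 stood there at 404 CPM, with the next library at 124 CPM. For Rpl41 the values were 444 and 106 CPM, for Rps28 125 and 39.1 CPM, and for Rps27 285 and 133 CPM. Rps13 had 193 CPM there beside 106 CPM, Rps3 369 beside 234 CPM, Rpl37rt 47.8 beside 19.2 CPM and Rpl21-ps8 33.9 beside 13.9 CPM. Among respiratory genes, Ndufb6 had 145 CPM in sedentary 6 and 83.6 CPM in the next library, Ndufb8 364 and 217 CPM, and Atp5g1 842 and 417 CPM. Eif6 (51.4 and 36.3 CPM) and Churc1 (50.2 and 28.5 CPM) followed the same order.

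Sedentary 6 was the lowest for another set, with Tef at 57.5 CPM where the next library had 267 CPM. Bhlhe40 had 20.0 CPM there and 59.9 CPM in the next library, Cry2 51.4 and 80.9 CPM, and Ctsl 28.3 and 51.3 CPM.

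Sedentary 1 was the highest for Dbp (86.2 CPM, next 38.3 CPM), Per3 (51.2 CPM, next 23.4 CPM) and Acot1 (12.2 CPM, next 4.30 CPM). Sedentary 4 was the highest for Nfe2l2 (79.1 CPM, next 55.6 CPM).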

How the results depend on the processing

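The count of genes called against all 6 sedentary libraries (3717) ranged from 2178 to 3881 when 1 library was left out, and the GC-corrected count (1746) from 674 to 2056. The count called against both sets ranged from 1909 to 3061, the same with GC correction from 745 to 1693, and the count that holds from 494 to 1117. With only CD47-KO and sedentary libraries in the fit, the GC-corrected count was 942, the count called against both sets after correction 738 and the count that holds 465. DESeq2 gave 2684 with GC correction. Under GC correction, Cd47 passed at -1.21, and Ugp2 (-0.19), Eif4g2 (-0.067) and Bnip3 (-0.10) changed sign. Without sedentary 1 and 6, 1157 genes held, 711 of them among the 790, and with a length correction 668, of which 595 were shared. Deviations of same-numbered libraries correlated at -0.0928, -0.337 and 0.232 without GC correction, and those of other numbers from -0.292 to 0.384. So few values cannot show whether the replicate numbers pair the samples. A replicate block gave 4842 calls, and 2565 with GC correction. On replicates 1 to 3 alone the block gave 5349, and 3111 with GC correction. No paired analysis was possible for the counts against both sets because CD47-KO and sedentary 4 to 6 share no numbers. The GC content of the union of exons was not run. Fitting only the 9 libraries ended the call of Rpl37rt, Rpl21-ps8, Rpl10-ps3, Arntl, Bhlhe41, Ndufb6, Ndufb8, Ndufa9, Atp5g1, Atp5g3, mt-Nd4l, Casq1, Ank3, Rps3, Rps27, Rpl10, Mrpl37, Eif6, Hsp90b1, Txn1, Ctsl, Cat, Strada, Stradb, Pik3ca, Qk, Hnrnpa0, Hnrnpa1, Fbxo32, Lox, Clock, Hlf and Klf15. GC content averaged over transcripts ended that of Clock, Sirt1, Pik3ca, Hspa4, Hsp90b1, Hnrnpa1, Ndufb8, Atp5g1 and Lox, and the length correction that of Clock, Qk, Mbnl1, Mylpf, Casq1, Ndufa9, Eif3j1 and Eif6. Whether depth limits the calls was not tested. Genes of few counts, such as Rpph1, rest on little.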
